A study of Rattus norvegicus with 6 samples.

Results

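The miRNAs of the cluster of miR-132 and miR-212 were followed on 6 single-colour Agilent Rat miRNA arrays of rat myocardium. Every miRNA probe on the array named for an arm of rno-miR-132 or rno-miR-212 was taken, whether or not it was detected, which gave 4 of the 758 miRNAs and 8 of the 1806 probes. The 4 are miR-132-3p, miR-132-5p, miR-212-3p and miR-212-5p, with 2 probes each. The rats were male Sprague–Dawley animals of 2 groups. In the model group (MI in the labels) the left anterior descending coronary artery had been tied off, and in the control group (Non-MI) the thread had been passed without tying it. Tissue was taken 4 weeks after surgery, and 3 rats of each group went on the arrays, 1 rat per array. By the methods, the tissue came from the infarct margin, and no separate site is named for the control rats, whose artery was not tied. The rats were drawn at random from larger groups, and no age is given.

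A miRNA is a short RNA that represses the mRNAs it pairs with, mainly through its seed (bases 2 to 8). miR-132 and miR-212 are cut from neighbouring hairpins of a single primary transcript, which is best known as a target of the transcription factor CREB in neurons. In the heart the 3p arms are known as promoters of cardiomyocyte growth that repress FoxO3, an activator of autophagy genes, and miR-132 is also known from endothelial cells and pericytes of growing vessels.

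The mature sequences are shown because both 3p arms carry the same seed, while their probes gave different readings. All 4 array names matched a RefSeq mature sequence (rat build GRCr8), given 5′ to 3′ with the seed in capitals. All lie on the + strand of chromosome 10.
rno-miR-212-5p: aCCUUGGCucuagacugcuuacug
rno-miR-212-3p: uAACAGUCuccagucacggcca
rno-miR-132-5p: aCCGUGGCuuucgauuguuacu
rno-miR-132-3p: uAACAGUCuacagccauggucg
These are the 24 bases of chr10:60521771-60521794, and the 22 bases each of chr10:60521811-60521832, chr10:60522055-60522076 and chr10:60522091-60522112, in the order shown. The mature miR-212-3p and miR-132-5p are 222 bases apart, no annotated gene lies between or over the hairpins, and the neighbours in gene order are Hic1 and LOC120095261. The 3p arms had identical bases at 17 of 22 positions, the first 9 from the 5′ end included. Among 693 mature rat miRNAs, the seed AACAGUC occurred in these 2 only. The 5p arms matched at 14 of 22 positions, and neither shared its seed with another rat miRNA in the table. Probe sequences were not used here, and how far a probe of 1 3p arm also reads the other was not tested.

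Between 206 and 222 miRNAs (27.2% to 29.3%) were detected per array, a probe counting as detected when its signal exceeded 3 times the error that the scanner software gives it. A signal is the background-subtracted brightness of a probe in the scanner's linear intensity units. Signals called scaled were multiplied by a factor of 0.849 to 1.19 per array, which sets the 75th percentile, over the 198 miRNAs that every array detected, to one common value. Signals depend on the probe as well as on the RNA, so that only differences of the same probes between arrays are read here.

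The cluster lay near the detection limit for miR-132-3p alone. miR-132-3p was detected on 0 of 3 control arrays and on 3 of 3 model arrays, miR-212-3p on all 6 arrays, and neither 5p arm on any array. The mean scaled signal of miR-132-3p was 4.98 in the models and 1.89 in the controls, with no overlap between groups, and that of miR-212-3p was 44.5 and 48.2, with overlap and a wide spread among the model rats. With 3 arrays a group, the exact permutation test on these sums could pass for neither.

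**Figure D1:**
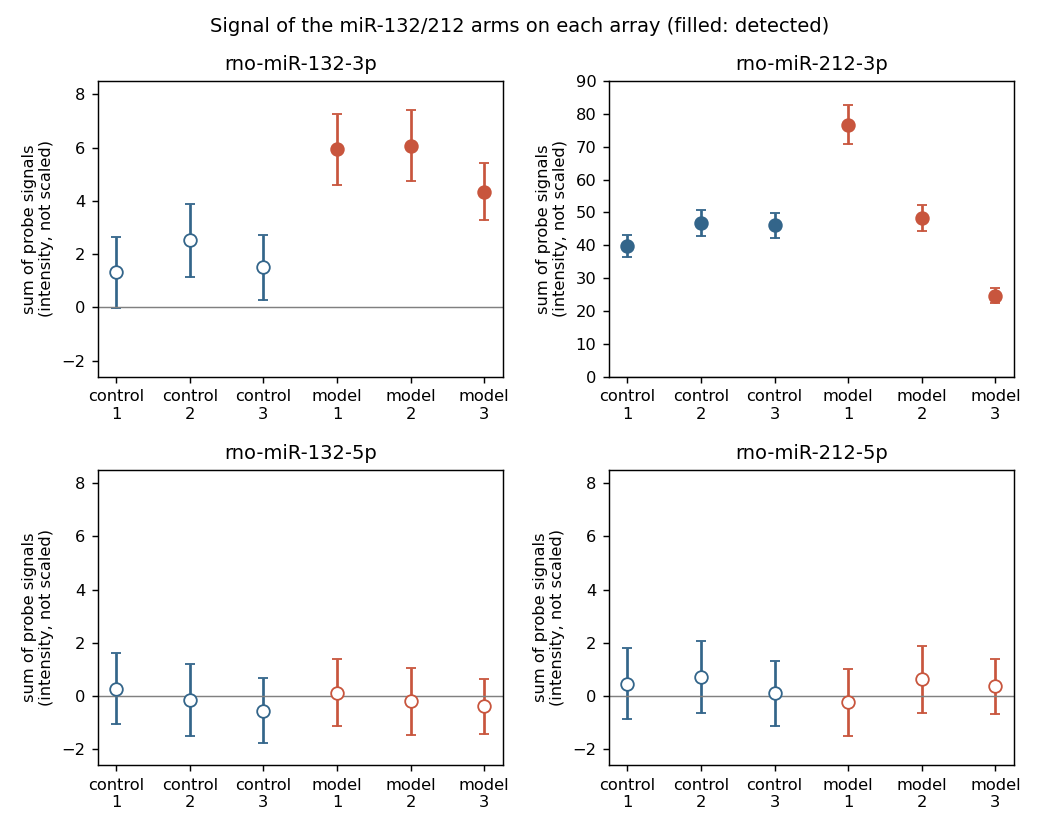
Unscaled signal summed over both probes of each arm, on each array, with bars of 1 scanner error and filled points where at least 1 probe was detected. The model arrays of miR-132-3p (4.35 to 6.07) all lay above the control arrays (1.32 to 2.53), the groups overlapped for miR-212-3p on its wider axis, and both 5p arms lay at 0 within their errors.

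For miR-132-3p, the signals of both probes summed to 1.32, 2.53 and 1.51 on control arrays 1 to 3 and to 5.93, 6.07 and 4.35 on model arrays 1 to 3. The sums were 0.99, 1.84 and 1.23 times their error in the controls and 4.42, 4.55 and 4.03 times in the models. All 3 model arrays lay above all 3 control arrays. After scaling, the control mean was 1.89 ± 0.38 and the model mean 4.98 ± 0.49 (SD, n = 3 each), a difference of 3.09. The exact two-sided permutation test gave p = 0.10, the smallest that 3 against 3 arrays allow, and p = 0.40 adjusted over the 4 arms. Groups that do not overlap are common on these arrays: 47.2% of the 214 miRNAs that entered the fit across miRNAs showed no overlap.

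Both miR-132-3p probes kept the groups apart, though only A_26_P00001346 was ever detected. Its signals were 1.25, 1.94 and 0.99 in the controls against 4.12, 4.44 and 3.22 in the models, and its highest ratio of signal to error was 4.49. A_26_P00001347 read 0.070, 0.583 and 0.520 in the controls and 1.81, 1.64 and 1.14 in the models. Its ratio of signal to error did not exceed 1.99, so that the detected-probe sum of miR-132-3p rests on A_26_P00001346 alone. The exact permutation test gave p = 0.10 for each probe.

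**Figure D2:**
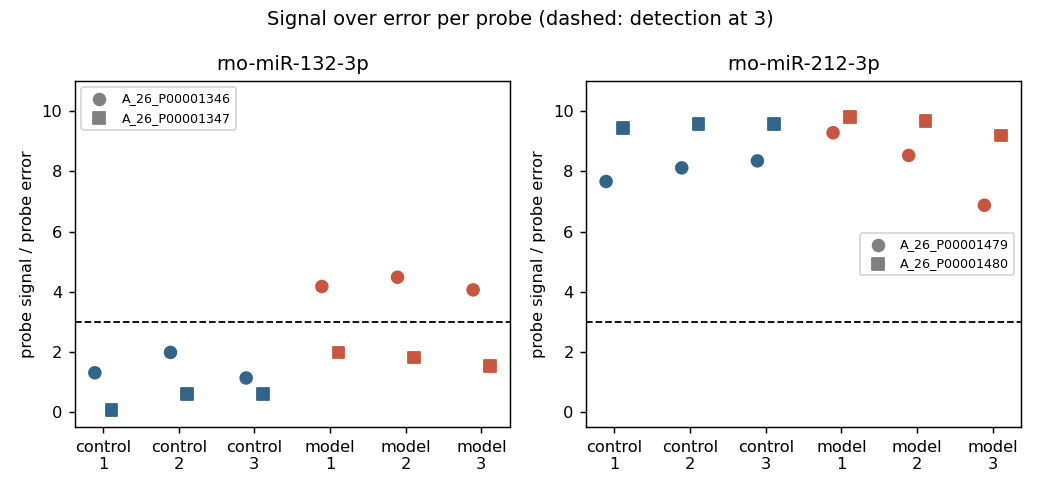
Probe signal divided by probe error on each array for the 2 probes of miR-132-3p (left) and of miR-212-3p (right), with a dashed line at the detection limit of 3. Only A_26_P00001346 crossed the line between groups, and both miR-212-3p probes stayed at 6.88 or more on all 6 arrays.

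The single spots of miR-132-3p gave the same picture against the array's own blanks. Each array carries 16 spots for the miRNA and 434 negative-control spots, whose 95th percentile lay between 2.65 and 3.52. Of the 16 spots, 4, 5 and 2 exceeded that percentile in the controls, against 13, 16 and 11 in the models. The median spot read 0.965, 2.70 and 1.92 in the controls and 5.09, 5.86 and 4.23 in the models. For comparison, 0 or 1 of the 16 spots of miR-132-5p exceeded it on each array.

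**Figure D3:**
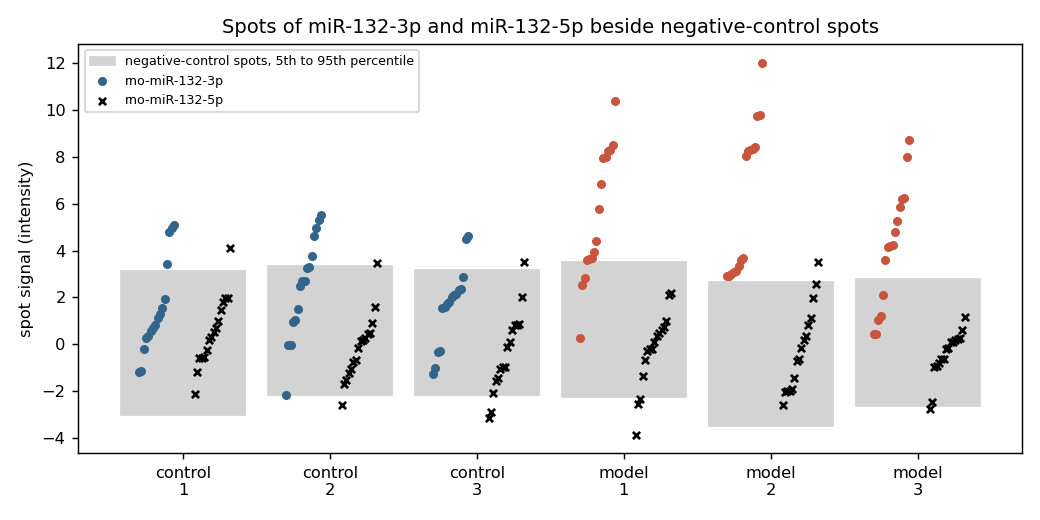
Signal of each of the 16 spots of miR-132-3p (circles) and of miR-132-5p (crosses) on each array, in intensity units, sorted within the array, with the 5th to 95th percentile of the negative-control spots in grey. Most circles of the model arrays stood above the grey band (11 to 16 of 16), and most circles of the control arrays lay within it.

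On the control arrays the sums of miR-132-3p read above 0, but not beyond the range of undetected miRNAs. The 522 miRNAs undetected on all 6 arrays had median probe sums between -0.29 and -0.0086 on the 6 arrays, and miR-132-3p exceeded 85.8%, 96.0% and 93.9% of them on control arrays 1 to 3. Its control sums stayed below the 97.5th percentile of those miRNAs, which was 2.57, 2.76 and 2.21 on the same arrays. On each model array it exceeded all 522. This follows largely from the choice, since the 522 were undetected on every array and miR-132-3p was detected on each model array.

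The size of the difference depended on how the control signal below detection was treated. The control sums were below the detection limit, so that the size of the difference is uncertain. Each control array was given the larger of its probe sum and the lowest signal detected for any miRNA on it (mean 1.99). Against this, the detected signal of the models (mean 3.58) gave a 1.80-fold difference, with miR-132-3p higher in the models. Both means are geometric means of scaled signals. The sides are unlike measures, because a control probe sum holds both probes and the detected signal of the models holds A_26_P00001346 alone. The 1.80-fold difference is not a strict lower bound, because an undetected probe can read up to 3 times its own error. Some other settings also gave smaller differences. With undetected values set to a floor of 1.90 scaled units, the highest of the lowest detected signals per array, limma gave a log2 fold change of 0.91 (SE 0.091, adjusted p = 0.00243, higher in 3 of 3 model arrays). miR-132-3p entered this fit only through the model arrays, where it is high, and its 3 control values all lay on the floor with a spread of 0, so that the value and its p describe the distance of the models from the floor. With both probes summed whether detected or not, the log2 difference was 1.41 (0.90 ± 0.28 in the controls and 2.31 ± 0.14 in the models, SD, n = 3). The authors' normalized log2 values were -3.22, -3.30 and -3.25 in the controls, which is the value undetected miRNAs share on each array, and 1.94, 1.94 and 1.77 in the models, and limma on them gave a log2 fold change of 5.14.

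Of the 2 members of the cluster that entered the fit, 1 had an adjusted p under 0.05. Over all 214 miRNAs tested the share was 22.9%, with 10.3% higher and 12.6% lower in the model group, but nothing is read from the member's call against it, because miR-132-3p passed the detection filter through its high group alone. Over the miRNAs that every array detected, the median log2 fold change was -0.15, and relative to it miR-132-3p with its controls at the floor stood at 1.06. miR-132-3p had been listed by the study as changed on these same arrays, so its call here is not independent evidence. The call was lost with the totals as deposited (log2 fold change 0.21, adjusted p = 0.357, limma) and with normexp background correction (-0.081, adjusted p = 0.470, limma), which adds 50 to each spot signal.

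**Figure D4:**
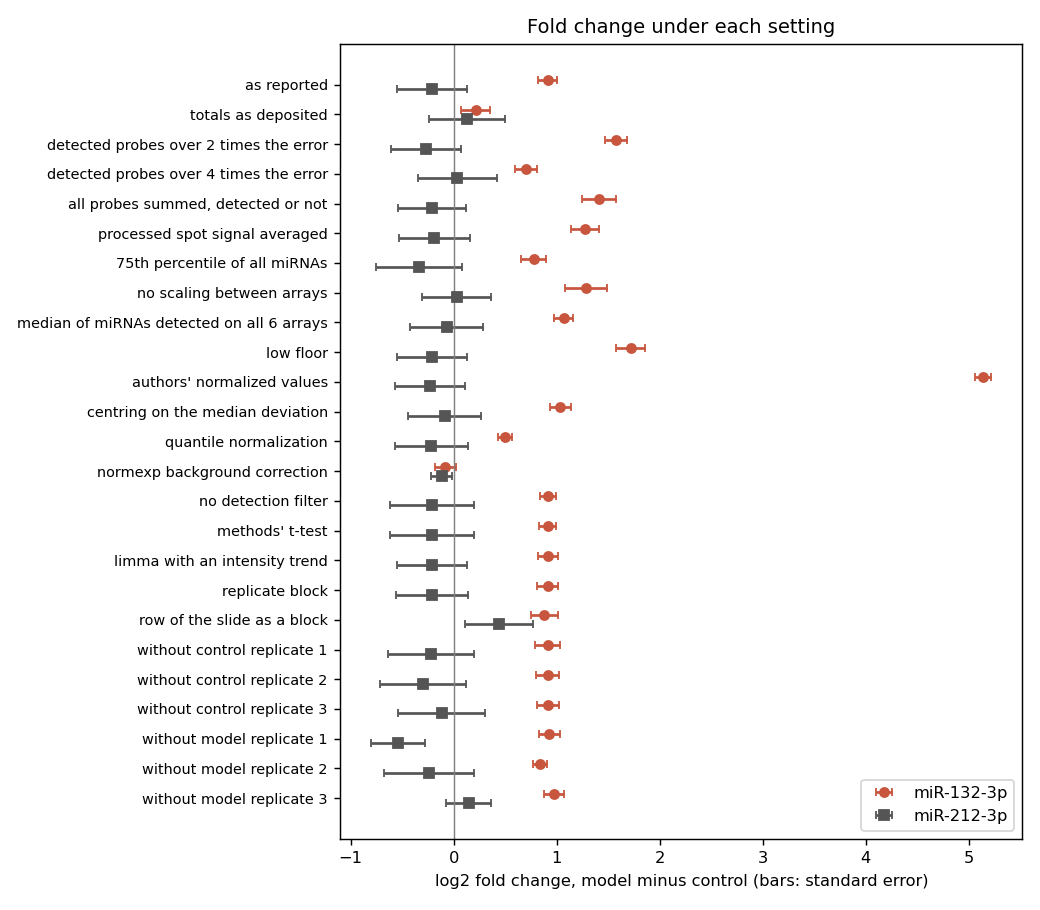
Log2 fold change (model minus control) of miR-132-3p (circles) and miR-212-3p (squares) as reported and under each alternative setting, with bars of 1 standard error. Values for miR-132-3p ran from -0.081 to 5.14 and were above 0 in 23 of 24 alternatives, and those for miR-212-3p ran from -0.54 to 0.44.

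miR-212-3p, which has the same seed, was measured well above the detection limit. Its probe sums were 39.7, 46.8 and 46.1 on control arrays 1 to 3 and 76.7, 48.3 and 24.7 on model arrays 1 to 3, each 11.3 to 12.7 times its error. Model 1 read highest of all 6 arrays and model 3 lowest, with the controls between them. The scaled means were 48.2 ± 6.0 for the controls and 44.5 ± 19.9 for the models (SD, n = 3 each, exact permutation p = 0.90). In the fit the log2 fold change was -0.21 (SE 0.34, adjusted p = 0.674, limma), with a 95% confidence interval from -1.06 to 0.64, that is from 0.48-fold to 1.56-fold. A difference in either direction within these limits could not be told from the spread between rats, and the sign turned with the scaling and without model 3.

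The spread of miR-212-3p lay among the model rats rather than between probes. The highest model signal was 2.57 times the lowest after scaling and 3.11 times before it, while the controls differed by 1.28 times. The log2 SD was 0.68 among the models, the 9th largest of 214 miRNAs, and 0.18 among the controls. Both probes were detected on all 6 arrays, all 16 spots exceeded the negative-control percentile on each array, and the ratio of A_26_P00001480 to A_26_P00001479 stayed between 2.32 and 2.54. The order of the model arrays was thus the same in both probes.

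The 5p arms, cut from the other side of these hairpins, gave no signal above background. miR-132-5p sums were 0.281, -0.147 and -0.552 in the controls and 0.131, -0.195 and -0.387 in the models. miR-212-5p sums were 0.469, 0.706 and 0.105 in the controls and -0.238, 0.632 and 0.366 in the models. No sum was more than 0.53 errors from 0, with a scanner error of 1.02 to 1.36 units, and the groups overlapped in both arms (exact permutation p = 1.0 and p = 0.60). A difference between groups smaller than these errors was not detectable here. One 5p probe, A_26_P00002972 of miR-212-5p, had non-overlapping groups all the same (lower in the models by 0.28 scaled units, exact permutation p = 0.10), with signals of at most 0.50 errors.

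Since the 3p arms share a transcript, their signals were also set against each other on the same array, where scaling between arrays has no part. The miR-132-3p sum was 3.33%, 5.40% and 3.27% of the miR-212-3p sum on control arrays 1 to 3 and 7.73%, 12.6% and 17.6% on model arrays 1 to 3. The percentages do not give relative abundance, because the probes differ, and only their differences between arrays are read. All model arrays lay above all control arrays, and the mean log2 ratio was -4.69 ± 0.41 in the controls and -3.06 ± 0.60 in the models (SD, n = 3 each, exact permutation p = 0.10), a difference of 1.62. Since the miR-132-3p sums of the controls were below the detection limit (at most 1.84 errors), this difference describes the measured sums and its size is uncertain. The difference kept its direction in each of the 11 other settings tried and ran from 1.34 to 2.42. These used single probe pairs, averaged spot signals or left out an array. Leaving out an array could not turn the sign, because the groups did not overlap. The other settings reuse the same spots, and the pairs with A_26_P00001347 rest on a probe that was never detected. Among the model rats the percentage was highest where miR-212-3p was lowest (model 3) and lowest where miR-212-3p was highest (model 1).

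**Figure D5:**
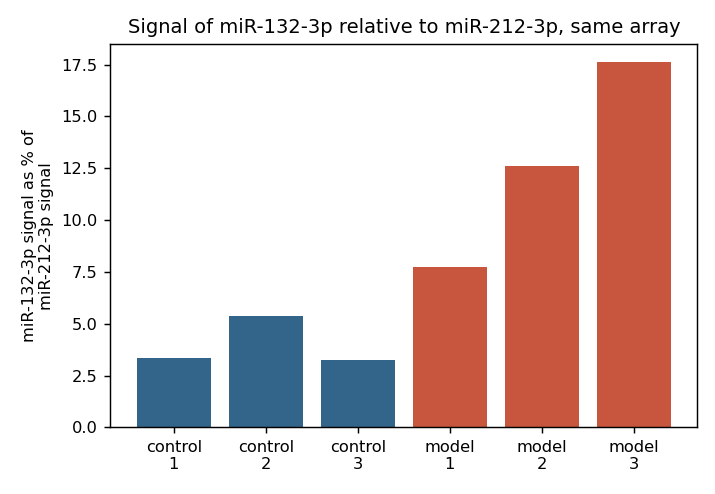
Probe sum of miR-132-3p as a percentage of that of miR-212-3p on the same array, 1 bar per array. The bars of the model arrays (7.73% to 17.6%) all exceed those of the control arrays (3.27% to 5.40%).

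The arrays lay in 2 rows of the slide, the first holding the 3 controls with model 1 and the other models 2 and 3. Within the first row, miR-132-3p in model 1 (5.03 scaled units) lay above the control mean of 1.89 by 3.15 units, and miR-212-3p was 1.35 times its control mean. With the row as a block, limma gave a log2 fold change of 0.88 for miR-132-3p, with its controls at the floor. For miR-212-3p it gave 0.44, which is the opposite sign to that without the block. The second row held no control, so that both values compare model 1 alone with the 3 controls. Models 2 and 3 add nothing to these differences, and an effect of the row cannot be told apart from them.

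Detection on no control array and all model arrays was shown by 4 of the 758 miRNAs, and the reverse by 0. Beside miR-132-3p, these were miR-222-3p, miR-31a-3p and miR-335. Of the 758 miRNAs, 522 were detected on no array. Each model array detected more miRNAs (222, 221 and 222) than any control array (206, 218 and 209). The part of this difference in the pattern was not tested. The probe sums of miR-222-3p were 3.92, 5.28 and 2.04 in the controls and 11.2, 14.6 and 9.51 in the models. Those of miR-31a-3p were 1.79, 1.51 and 0.13 in the controls and 7.71, 13.2 and 8.23 in the models. For miR-335 they were 3.78, 1.89 and 2.38 in the controls and 3.52, 4.06 and 3.08 in the models. The groups were apart for miR-222-3p and miR-31a-3p, as for miR-132-3p, and overlapped for miR-335. No fold is given for these, since the denominators were undetected.

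The profiles closest to miR-132-3p over the 6 arrays, by Euclidean distance between mean-centred log2 values, were those of miR-221-3p (0.277), miR-146b-5p (0.374), miR-21-5p (0.388), miR-497-5p (0.412) and miR-511-3p (0.431), against a median distance of 1.39 over all miRNAs tested. Their log2 fold changes lay between 0.67 (miR-497-5p) and 1.101 (miR-21-5p). A likeness to a profile at the floor in the controls and above it in the models selects miRNAs that are higher in the models, so that this direction follows from the choice.

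Other miRNAs known for the roles ascribed to the cluster were read from lists. Of 6 miRNAs known to promote cardiomyocyte growth, 5 were tested and 0 passed the adjusted threshold in limma (22.9% over all miRNAs tested). By the methods' t-test 1 passed (12.1% over all). In limma 4 had an unadjusted p under 0.05, miR-208a-3p and miR-499-5p being lower and miR-23a-3p and miR-195-5p higher. Over all 214 miRNAs, 30 were higher and 51 lower at that threshold. Under 5 other scalings 0 to 2 of the list were called higher and 0 or 1 lower, with list medians from -0.40 to -0.028. The list had a median log2 fold change of -0.27, against -0.14 for all miRNAs tested. Their values ran from -0.87 for miR-208a-3p, which is encoded in a myosin heavy chain gene, to 0.51 for miR-195-5p. Of 6 known to restrain it, 5 were tested and 3 were lower in the model group (miR-1-3p, -0.76, miR-133a-3p, -0.68, and miR-133b-3p, -0.72, all abundant in muscle), with a median of -0.68, against 12.6% lower over all miRNAs tested. The methods' t-test called 0 of the 5 after adjustment, and under 5 other scalings 0 to 3 were called lower. Of 8 known from vessel growth, all were tested, 2 were higher and 3 lower, with a median of -0.027, beside 10.3% higher and 12.6% lower over all miRNAs. Under the other scalings 2 or 3 were called higher and 0 to 2 lower, with medians from -0.15 to 0.22. The 2 were miR-221-3p (1.07) and miR-222-3p, which like miR-132-3p was undetected in the controls, and the 3 were miR-126a-3p (-0.49) and miR-126a-5p (-0.59), the miRNAs of endothelium, and miR-92a-3p (-0.37). These lists share members with the markers of cardiomyocytes and endothelium below.

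Markers of several cell types also differed between the groups, in both directions. In whole tissue, fewer cells of a type and less RNA per cell cannot be told apart. The 4 fibroblast or matrix markers (miR-199a-3p, miR-199a-5p, miR-214-3p and miR-21-5p) were all higher in the model group, beside 10.3% over all miRNAs tested. Their median log2 fold change was 1.62, and their summed scaled signal was 665 to 818 in the controls and 1758 to 2479 in the models. The study lists these markers too as changed on these arrays, so that their direction is not independent evidence. The 5 cardiomyocyte markers had a median of -0.72, 3 of them being lower in limma (12.6% over all miRNAs) and 0 by the methods' t-test after adjustment, and summed to 19703 to 23751 in the controls and 10507 to 14671 in the models, so that the labelled tissue bore its defining markers. Both endothelial markers were lower (12.6% over all miRNAs), with a median of -0.54 and a sum of 1407 to 1581 against 1032 to 1148. Of the 5 leukocyte markers, 1 was higher (miR-155-5p, 1.07) and 1 lower (miR-150-5p, -0.60), beside 10.3% higher and 12.6% lower over all miRNAs. In that list miR-142-5p was undetected, and the sum was 363 to 413 against 263 to 319. Of the 3 red blood cell markers, 1 was lower (miR-486, -0.68), beside 12.6% over all miRNAs. In this list miR-144-3p was undetected, and the sum was 309 to 363 against 194 to 247. Under 5 other scalings, which moved the median of all miRNAs tested from -0.26 to 0.11, the 4 fibroblast or matrix markers were called higher each time, while 0 to 4 cardiomyocyte and 0 to 2 endothelial markers were called lower, with list medians of -0.85 to -0.48 and of -0.66 to -0.30. Under the same scalings 1 leukocyte marker was called higher each time. For leukocyte markers 0 or 1 was called lower, and likewise 0 or 1 for red blood cell markers. The part of all these markers in the miR-132-3p result was not tested.

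Neurons, the cell type from which the cluster is best known, left little trace on the arrays. Of 7 neuronal marker miRNAs, 6 were undetected on all 6 arrays, the brain's miR-124-3p and miR-9a-5p among them. The remaining miR-128-3p, which muscle also expresses, had a log2 fold change of -0.42 (adjusted p = 0.0441, limma), a call that was lost with the methods' t-test and with at least 1 other scaling. The summed signal of the list was 14.7 to 18.8 in the controls and 12.2 to 12.97 in the models.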

How the data were processed

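Total RNA of the myocardium of 6 rats was hybridised to Agilent Rat miRNA arrays in 1 colour. The authors deposited spot-level intensity values from Agilent Feature Extraction 10.7.1.1 (per the submitters' processing notes), background-subtracted and not scaled between arrays, and a table of normalized log2 values whose method is not given in the sources used here. These log2 values correlated with log2 detected-probe sums at 0.992 to 0.999 across detected miRNAs, and their column medians were -3.31 to -3.22. 

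The signal of a miRNA was the sum of its probes over 3 times their error. Arrays were scaled to the 75th percentile over the 198 miRNAs that every array detected, and values were floored at 1.90 before log2. The 214 miRNAs detected on all arrays of at least 1 group were compared with limma 3.58.1 (R 4.3.3) with Benjamini-Hochberg adjustment, which called 49 (22 higher, 27 lower). Single values were compared by exact permutation, with both probes summed whether detected or not. Other steps used Python 3.11.15, pandas 2.3.3, numpy 2.4.6 and matplotlib 3.10.9. Arrays give no read depth, and their number, 3 per group, limits the precision.

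The cluster, lists and tests were chosen with earlier results of these data known. The miRNAs named were the arms of miR-132 and miR-212, the 5 closest profiles to miR-132-3p, the miRNAs detected on all arrays of 1 group only, and list members. Alternatives changed the summary of probes, the detection limit, background correction, scaling, floor, filter, test and block, used the authors' values, or left out each array in turn.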

Additional observations from a re-analysis of the deposited data

How the results depend on the processing

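The log2 fold change of miR-132-3p had an adjusted p under 0.05 (limma or the methods' t-test) and was higher in the model group in 22 of 24 alternatives, and lay between 0.84 and 0.97 with each array left out. Leaving out a control returned 0.91 by construction, since all 3 controls lay on the floor, so this range and the count say little about stability. The exceptions were the totals as deposited (0.21, where the floor was 3.47 in place of 1.90) and normexp (-0.081). The other values ran from 0.50 with quantile normalization through 0.70 with detection at 4 times the error, 1.57 at 2 times, and 1.72 with a low floor of 1 unscaled unit, to 5.14 with the authors' values. For miR-212-3p no alternative passed the threshold (adjusted p 0.202 to 0.966), and the sign turned with the totals as deposited (0.13), detection at 4 times the error (0.036), no scaling (0.031), the slide row as a block (0.44) and without model replicate 3 (0.14), with -0.54 to 0.14 when leaving out each array. The summed miR-132-3p difference was 2.83 to 3.48 scaled units in 9 alternatives and 3.67 unscaled units without scaling. The miR-212-3p difference of -3.66 became 5.68 without scaling and 1.11 with scaling by the median, and ran from -14.0 to 5.94 with an array left out. The differences of both undetected arms changed sign around 0, from -0.25 to 0.24 (miR-132-5p) and from -0.36 to 0.028 (miR-212-5p) with an array left out, and 0.036 for miR-132-5p with the 75th percentile of all miRNAs. The cause of these changes was not tested.

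The count of 49 miRNAs fell to 19 without scaling (19 higher, 0 lower), 9 without the detection filter (758 miRNAs tested), 26 by the methods' t-test, 29 with the row as a block and 14 to 40 with an array left out (14 without control replicate 1). The split of higher to lower calls also moved, to 35 and 1 with the totals as deposited, 44 and 13 with detection at 4 times the error, 19 and 47 with the percentile taken over all miRNAs, 32 and 15 with the median and 30 and 16 with centring on the median deviation. With the replicate block 16 miRNAs were called, and miR-132-3p kept its log2 fold change of 0.91 (adjusted p = 0.0217, limma). The replicate numbers do not pair the rats: the deviations of equally numbered arrays correlated at -0.26, 0.0011 and 0.16, and 2 of 6 arrays correlated best with their own number. Centring, the alternatives for the log2 fold change of miR-212-3p, and the ratio of the 3p arms with its alternatives were added after the values were seen. When an array was left out, the scaling and floor of all 6 were kept.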
